A study of Mus musculus with 9 samples.

Results

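The embryonic globins and the erythroid genes that accompany them were followed in sorted cells of the mouse somite. The set consisted of 9 named genes out of 18193 with a probe set of their own on the array: the embryonic globin genes Hba-x, Hbb-bh1 and Hbb-y, the haem synthesis gene Alas2, the erythroid nuclear protein gene Hemgn, the transcription factor genes Gata1 and Klf1, the red cell anion exchanger gene Slc4a1 and the erythropoietin receptor gene Epor. They were chosen by name, and every probe set annotated to one of them alone was used, which gave 15 of 45037 probe sets, 7 for the globins and 8 for the other genes. None was removed by a filter on low values.

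The study compared transcripts of mouse somite cells with and without PAX3-FKHR, a fusion of the DNA binding part of PAX3 with the activating part of FOXO1 (FKHR) that is found in a human muscle tumour, rhabdomyosarcoma. Hypaxial dermomyotome was dissected from the interlimb somites of embryos at embryonic day 9.5, pooled by genotype over many embryos, dissociated and sorted on green fluorescent protein (GFP), and each of 3 groups was hybridised in 3 biological replicates on Affymetrix arrays. PAX3-FKHR/GFP cells came from Pax3PAX3-FKHR/GFP embryos, which carry the fusion on one Pax3 allele and GFP on the other. The fusion allele had been switched on by Cre from a PGK-Cre transgene that their mothers carried, so that recombination was not limited to the somite while expression followed the Pax3 locus, and these embryos have head and neural tube abnormalities. The Pax3 lines were kept on a C57BL6/DBA2 background. GFP/+ cells came from Pax3GFP/+ embryos, with GFP on one Pax3 allele and an intact Pax3 allele. GFP- cells were the fraction without fluorescence. Their labels give no Pax3 genotype, while the methods place them in Pax3GFP/+ embryos in one passage and list wild type animals among the hybridised groups in another. GFP on 1 Pax3 allele is thus common to both GFP+ groups, and neural crest cells, which also express Pax3, may be among the GFP+ cells. The note on dissociation in the labels speaks of forelimb buds, whereas the titles and the tissue field name somites.

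The first red cells of the mouse embryo, the primitive erythroblasts, arise in the yolk sac and enter the circulation while they still have a nucleus. They make haemoglobin from embryonic globin chains, a zeta chain (Hba-x) with epsilon y (Hbb-y) or beta h1 (Hbb-bh1) chains, and the adult alpha chains join these as the cells mature. GATA1 and KLF1 bind GATA and CACCC motifs in the control regions of globin, haem synthesis and red cell membrane genes, and erythropoietin acts through its receptor on the survival and growth of the cells. The dermomyotome is an epithelium of muscle and skin progenitors and is not known as a source of red cells, although blood vessels run between the somites.

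Sequence upstream of the start site is shown for the 2 globin genes that mark the erythroid pattern at the alpha-like and the beta-like locus, and for Epor, which had the smallest difference between GFP+ and GFP- cells among the called probe sets. Each is 250 bases, 5′ to 3′ on the gene's strand, from RefSeq on GRCm38.p6. Capitals mark GATA motifs (the letters GATA with an A or T before them and an A or G after them), the CACCC box, the CCAAT box and the TATAAA box, each searched on both strands. Hba-x lies on the plus strand at chr11:32276350-32276599, Hbb-y on the minus strand at chr7:103853208-103853457 and Epor on the minus strand at chr9:21963577-21963826.
Hba-x: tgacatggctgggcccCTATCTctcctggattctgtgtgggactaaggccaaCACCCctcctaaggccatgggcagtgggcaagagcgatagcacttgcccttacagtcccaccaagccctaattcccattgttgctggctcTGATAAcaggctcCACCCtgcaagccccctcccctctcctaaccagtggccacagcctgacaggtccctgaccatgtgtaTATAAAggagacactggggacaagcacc
Hbb-y: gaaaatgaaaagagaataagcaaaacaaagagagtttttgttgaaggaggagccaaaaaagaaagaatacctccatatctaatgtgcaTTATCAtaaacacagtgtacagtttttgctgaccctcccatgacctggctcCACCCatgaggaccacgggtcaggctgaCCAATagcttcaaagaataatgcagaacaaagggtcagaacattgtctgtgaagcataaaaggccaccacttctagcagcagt
Epor: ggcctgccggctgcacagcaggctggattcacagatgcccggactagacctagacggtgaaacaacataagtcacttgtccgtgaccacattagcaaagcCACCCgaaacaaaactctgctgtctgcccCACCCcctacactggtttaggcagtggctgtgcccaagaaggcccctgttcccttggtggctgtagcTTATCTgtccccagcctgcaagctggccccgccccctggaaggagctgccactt

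Of the 9 genes, 7 were matched in the promoter table (Hbb-bh1 and Slc4a1 were not). A GATA motif was found in 6 of these 7, all but Gata1, against 26.5% of 32851 mouse promoters cut to the same length. CACCC was found in 6 of 7, all but Hemgn, against 52.0% of all promoters. CCAAT was found in 2 of 7 (Hbb-y and Klf1), against 33.8%, and TATAAA in 3 of 7 (Hba-x, Alas2 and Hemgn), against 12.4%. No match of one motif overlapped a match of another in the 7 sequences. A match shows only that the letters are present.

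On these arrays a value is the log2 of a probe set's summarised signal after Robust Multichip Analysis (RMA), and array medians lay between 4.63 and 4.68. Across all probe sets the correlation was 0.996 to 0.998 within a group and 0.987 to 0.996 between groups. A probe set was called when the adjusted p of limma's test was under 0.05 and the log2 difference was at least 0.5. The sort was checked on Pax3, which had values of 8.25, 8.31 and 8.30 in PAX3-FKHR/GFP cells and 9.06, 9.29 and 9.24 in GFP/+ cells, against 4.48, 4.82 and 4.20 in GFP- cells. PAX3-FKHR/GFP embryos have no intact Pax3 allele, and the authors state that mouse Pax3 is not transcribed in them. What the Pax3 probe set reads in those cells was not tested. All 11 measured dermomyotome markers were called higher in both GFP+ groups than in GFP- cells, where 2.63% of all genes were in PAX3-FKHR/GFP cells and 1.92% in GFP/+ cells, with summed linear signals of 5906 to 7252 in PAX3-FKHR/GFP cells and 5362 to 5417 in GFP/+ cells, against 698 to 739.9 in GFP- cells. With 3 arrays in a group, the number of arrays limits the precision, and p-values measure the spread between pooled samples.

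Embryonic globin and erythroid transcripts were lower in GFP/+ cells than in the GFP- fraction. Between GFP/+ and GFP- cells 14 of the 15 probe sets fell, 7 of 7 for the globins and 7 of 8 for the other genes, where 3.24% of all probe sets fell. Every one of the 9 genes had at least 1 probe set that fell. The median log2 difference was -4.80 over the 15 probe sets (-5.43 for the globins and -3.71 for the others), beside 0.02 over all probe sets. All 15 probe sets had their 3 GFP/+ values below their 3 GFP- values, a pattern that 11% of all probe sets had. Since each sample is a mass of cells, fewer erythroid cells and less erythroid RNA per cell cannot be told apart. The plot of values by sample shows 1 probe set for each gene.

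**Figure D1:**
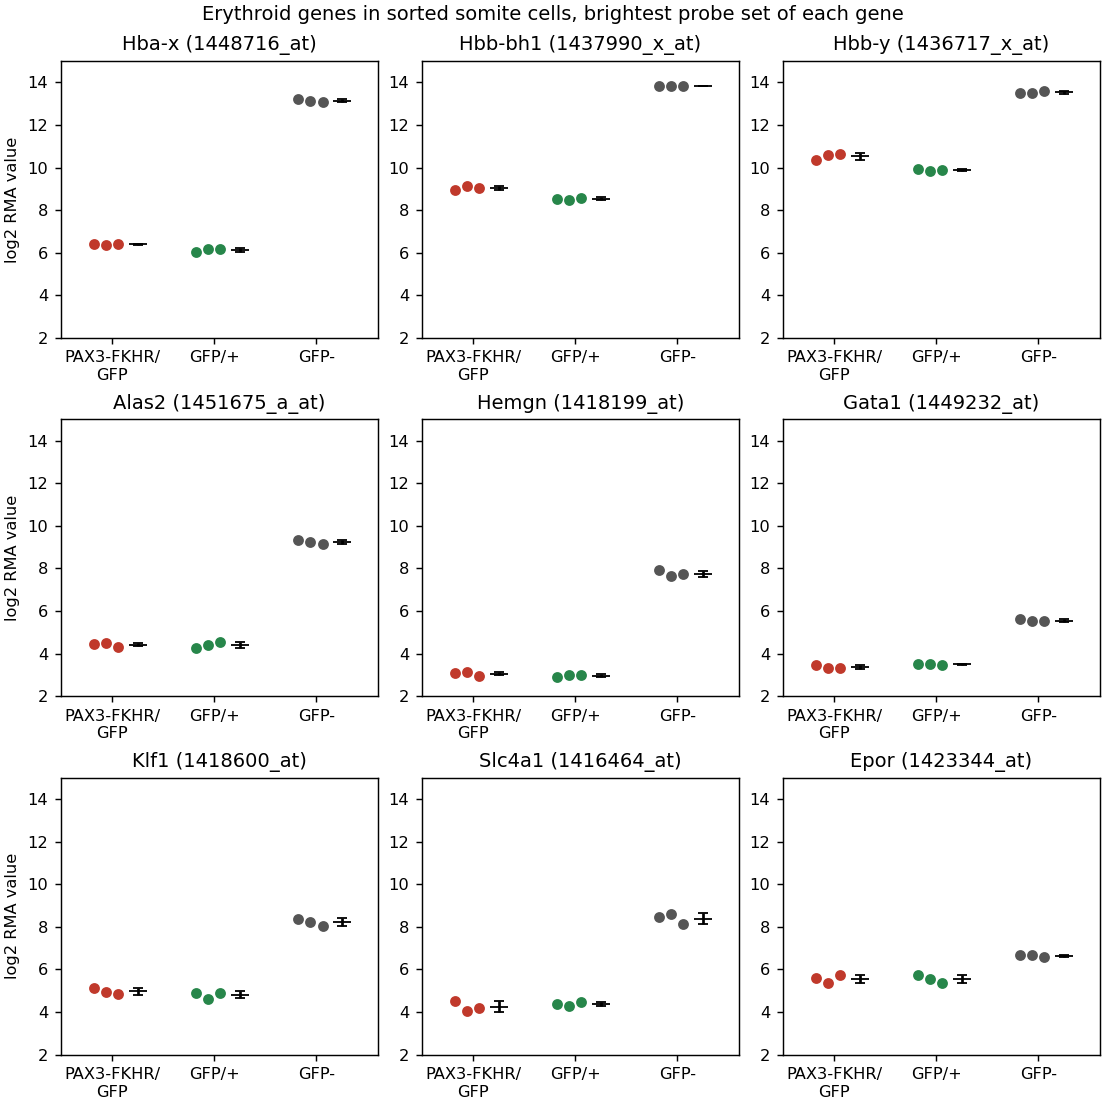
Log2 RMA values (vertical axis, the same scale in every panel, not from 0) of the 9 genes in PAX3-FKHR/GFP, GFP/+ and GFP- cells, from the probe set with the highest mean over the 9 arrays. Points are the 3 arrays of a group and bars the mean ± SD. In every panel the 3 GFP- points lie above both GFP+ groups, by the widest gap for Hba-x (13.08 to 13.24 in GFP- cells) and the narrowest for Epor (6.58 to 6.67).

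Hba-x, the zeta-like chain of embryonic haemoglobin, had values of 6.04, 6.18 and 6.18 in GFP/+ cells, against 13.24, 13.12 and 13.08 in GFP- cells. The groups lay far apart, with little spread inside either. The log2 difference was -7.01 (SE 0.064, adjusted p = 6.07e-12), 129-fold lower, so that the signal in GFP/+ cells was 0.775% of that in GFP- cells.

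Hbb-bh1, the beta h1 chain, was read by 3 probe sets. Probe set 1437810_a_at had values of 8.51, 8.37 and 8.41 in GFP/+ cells, against 13.89, 13.85 and 13.82 in GFP- cells, a log2 difference of -5.43 (SE 0.051, 43.0-fold lower). Probe set 1437990_x_at gave -5.29 and probe set 1450736_a_at -6.86 (116-fold lower), each with adjusted p = 6.07e-12. The 3 probe sets shared direction and separation of the groups and differed in the size of the difference.

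Hbb-y, the epsilon y chain, differed more between its probe sets. Probe set 1450621_a_at had values of 6.48, 6.07 and 6.20 in GFP/+ cells, against 13.06, 12.99 and 13.07 in GFP- cells (log2 difference -6.79, SE 0.093, 111-fold lower). The values of 1436717_x_at were 9.91, 9.83 and 9.87 in GFP/+ cells, against 13.48, 13.52 and 13.58 in GFP- cells (-3.66, SE 0.048, 12.6-fold lower), and 1436823_x_at gave -3.73. The remaining signal in GFP/+ cells was therefore 0.902% of the GFP- signal on the first probe set and 7.92% and 7.55% on the others. The ending _x_at marks probe sets with probes that can match other transcripts, and the part of such matches in the remaining signal was not tested. The highest value on any array was 14.25, and whether the brightest globin signals in GFP- cells were held down near that end of the scale was not tested.

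Alas2, the enzyme that starts haem synthesis in red cells, had values of 4.25, 4.42 and 4.53 in GFP/+ cells, against 9.32, 9.23 and 9.17 in GFP- cells. The log2 difference was -4.84 (SE 0.084, adjusted p = 5.02e-10, 28.6-fold lower). Hemgn, a nuclear protein of blood cell precursors, had values of 2.88, 2.99 and 3.01 in GFP/+ cells, against 7.91, 7.64 and 7.72 in GFP- cells (log2 difference -4.80, SE 0.092). In GFP/+ cells both genes were below the median of the array, and Hemgn lay above only 7.83% of probe sets. No measure of background was used here, so no fold is given for Hemgn and other signals this dim, and whether background limits their log2 differences was not tested.

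The transcription factor genes separated the groups as well. Gata1, the zinc finger factor needed for red cell formation, had values of 3.50, 3.53 and 3.48 in GFP/+ cells, against 5.62, 5.53 and 5.52 in GFP- cells (log2 difference -2.05, SE 0.076, adjusted p = 8.05e-08), where its GFP/+ mean lay above 24.7% of probe sets. Klf1, the erythroid Krüppel-like factor that acts on beta globin genes, had values of 4.90, 4.63 and 4.89 in GFP/+ cells, against 8.39, 8.24 and 8.02 in GFP- cells (-3.41, SE 0.111, 10.6-fold lower, adjusted p = 3.01e-08).

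Slc4a1, the band 3 anion exchanger of the red cell membrane, had 3 probe sets that did not behave alike. Probe set 1434502_x_at had values of 3.31, 3.24 and 3.06 in GFP/+ cells, against 9.74, 9.32 and 9.49 in GFP- cells (log2 difference -6.31, SE 0.113, with the GFP/+ mean above 15.1% of probe sets), and 1416464_at had values of 4.36, 4.28 and 4.48 in GFP/+ cells, against 8.44, 8.59 and 8.12 in GFP- cells (-4.01, SE 0.117, 16.1-fold lower). Probe set 1431743_a_at was dim in both groups, with values of 3.35, 3.20 and 3.33 in GFP/+ cells, against 3.45, 3.50 and 3.36 in GFP- cells. It was the one probe set of the 15 that was not called (log2 difference -0.14, 95% interval -0.31 to 0.03, adjusted p = 0.341).

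Epor, the receptor for erythropoietin, had values of 5.76, 5.55 and 5.38 in GFP/+ cells, against 6.66, 6.67 and 6.58 in GFP- cells. The groups did not overlap, and the log2 difference was -1.07 (SE 0.098, adjusted p = 6.06e-05), so that GFP/+ cells kept 47.5% of the GFP- signal.

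PAX3-FKHR/GFP cells were set against the same GFP- samples, so the comparisons with GFP- cells share those arrays. Again 14 of the 15 probe sets fell (3.36% of all probe sets did), with a median log2 difference of -4.69, beside 0.02 over all probe sets, and 14 of 15 had no overlap between the groups, against 10.6% of all probe sets. The log2 difference was -6.74 for Hba-x (107-fold lower), -4.80, -4.92 and -6.44 over the Hbb-bh1 probe sets, and -3.01, -3.04 and -6.35 over those of Hbb-y. It was -4.82 for Alas2, -4.69 for Hemgn, -2.18 for Gata1, -3.25 for Klf1 and -1.09 for Epor (adjusted p = 2.59e-05 for Epor). Slc4a1 gave -4.13 and -6.22 on its called probe sets and -0.15 on the dim 1431743_a_at (adjusted p = 0.401), whose values overlapped between the groups.

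**Figure D2:**
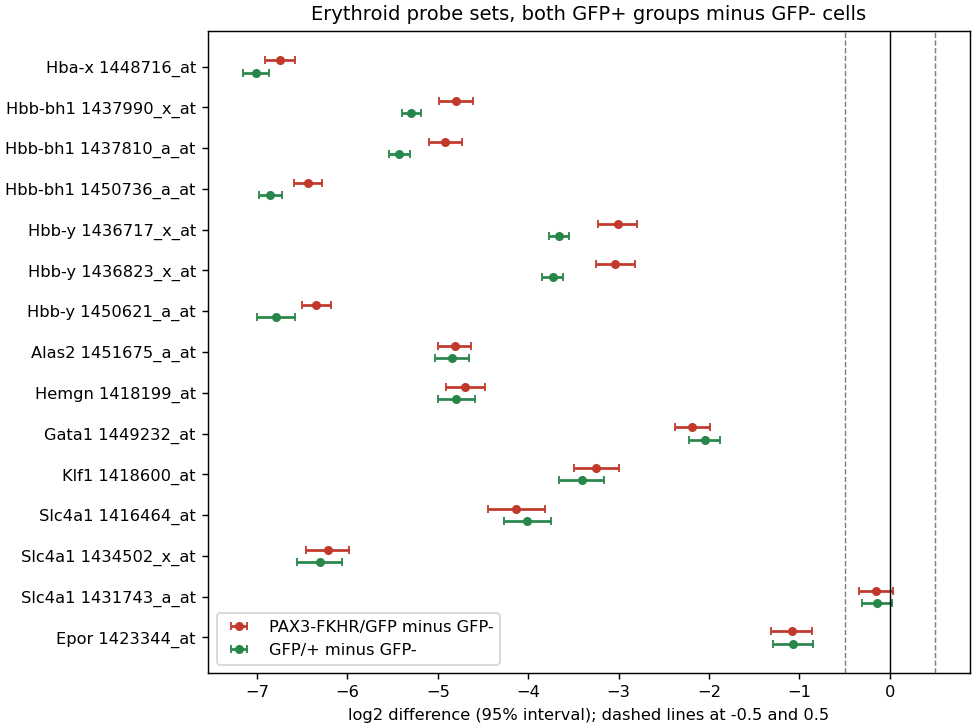
Log2 difference (horizontal axis, with 95% intervals) of each of the 15 probe sets for PAX3-FKHR/GFP minus GFP- cells and GFP/+ minus GFP- cells, which share the GFP- arrays. All but Slc4a1 1431743_a_at lie left of the dashed line at -0.5, from -7.01 for Hba-x to -1.07 for Epor in GFP/+ cells.

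Between the GFP+ groups, the beta-like embryonic globins were higher in PAX3-FKHR/GFP cells than in GFP/+ cells, while no change passed the test for the other erythroid genes. Of the 15 probe sets 3 rose, 2 of Hbb-y and 1 of Hbb-bh1, and none fell, where 0.884% of all probe sets rose and 0.473% fell. All 7 globin probe sets had their 3 PAX3-FKHR/GFP values above their 3 GFP/+ values, which 6.4% of all probe sets did, and their median log2 difference was 0.50, beside -0.004 over all probe sets. These differences were small beside those from GFP- cells: both GFP+ groups stayed far below the GFP- samples on every globin probe set.

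For Hbb-y, 1436823_x_at had values of 10.35, 10.60 and 10.61 in PAX3-FKHR/GFP cells, against 9.89, 9.75 and 9.83 in GFP/+ cells. The log2 difference was 0.69 (SE 0.094, adjusted p = 0.0029), 1.62-fold (95% interval 1.40 to 1.87). Probe set 1436717_x_at had values of 10.34, 10.59 and 10.63 in PAX3-FKHR/GFP cells, against 9.91, 9.83 and 9.87 in GFP/+ cells (0.65, SE 0.093, adjusted p = 0.0041, 1.57-fold). On both, replicate 1 was the lowest PAX3-FKHR/GFP array and still lay above every GFP/+ array. Both called Hbb-y probe sets end in _x_at, and the part of other transcripts in their difference was not tested. The third, 1450621_a_at, had values of 6.66, 6.72 and 6.72 in PAX3-FKHR/GFP cells, against 6.48, 6.07 and 6.20 in GFP/+ cells, where replicate 1 was nearer to the PAX3-FKHR/GFP arrays, and it was not called (0.45, SE 0.107, adjusted p = 0.078).

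For Hbb-bh1, 1437810_a_at had values of 8.83, 8.97 and 9.0 in PAX3-FKHR/GFP cells, against 8.51, 8.37 and 8.41 in GFP/+ cells, a log2 difference of 0.51 (SE 0.082, adjusted p = 0.00916, 1.42-fold, 95% interval 1.25 to 1.62). Probe set 1437990_x_at, with 8.93, 9.14 and 9.02 in PAX3-FKHR/GFP cells, against 8.54, 8.47 and 8.59 in GFP/+ cells, passed the test (adjusted p = 0.0115) and lay just under the size limit. Probe set 1450736_a_at had values of 6.41, 6.41 and 6.36 in PAX3-FKHR/GFP cells, against 5.90, 6.04 and 5.98 in GFP/+ cells (0.42, SE 0.082, adjusted p = 0.0283). The 3 probe sets thus separated the groups alike, and the limit of 0.5 on the log2 scale decided which was called.

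Hba-x had values of 6.42, 6.38 and 6.39 in PAX3-FKHR/GFP cells, against 6.04, 6.18 and 6.18 in GFP/+ cells. The groups did not overlap, and the log2 difference of 0.27 (SE 0.082, 1.20-fold) did not pass the test after adjustment (adjusted p = 0.213). Hbb-y 1436823_x_at was called under all 13 alternatives that gave it a value, with adjusted p up to 0.0494. The call of Hbb-bh1 1437810_a_at was lost when PAX3-FKHR/GFP replicate 2 was left out (adjusted p = 0.0992), as it was when the GFP/+ array left out was replicate 2 (0.0949) or replicate 3 (0.0876), and by size when PAX3-FKHR/GFP replicate 3 was left out (log2 difference 0.48) or after a second quantile normalization (0.47). The same arrays decided Hbb-y 1436717_x_at, whose adjusted p was 0.0632 when PAX3-FKHR/GFP replicate 2 was left out, and 0.0609 or 0.053 when GFP/+ replicate 2 or replicate 3 was. Calls were gained for Hbb-bh1 1437990_x_at when PAX3-FKHR/GFP replicate 1 (0.012) or replicate 3 (0.0435) was left out or each array was centred on its median (0.0173), and for Hbb-y 1450621_a_at when GFP/+ replicate 1 was left out (0.0204) or with the local pooled error test (0.0311).

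**Figure D3:**
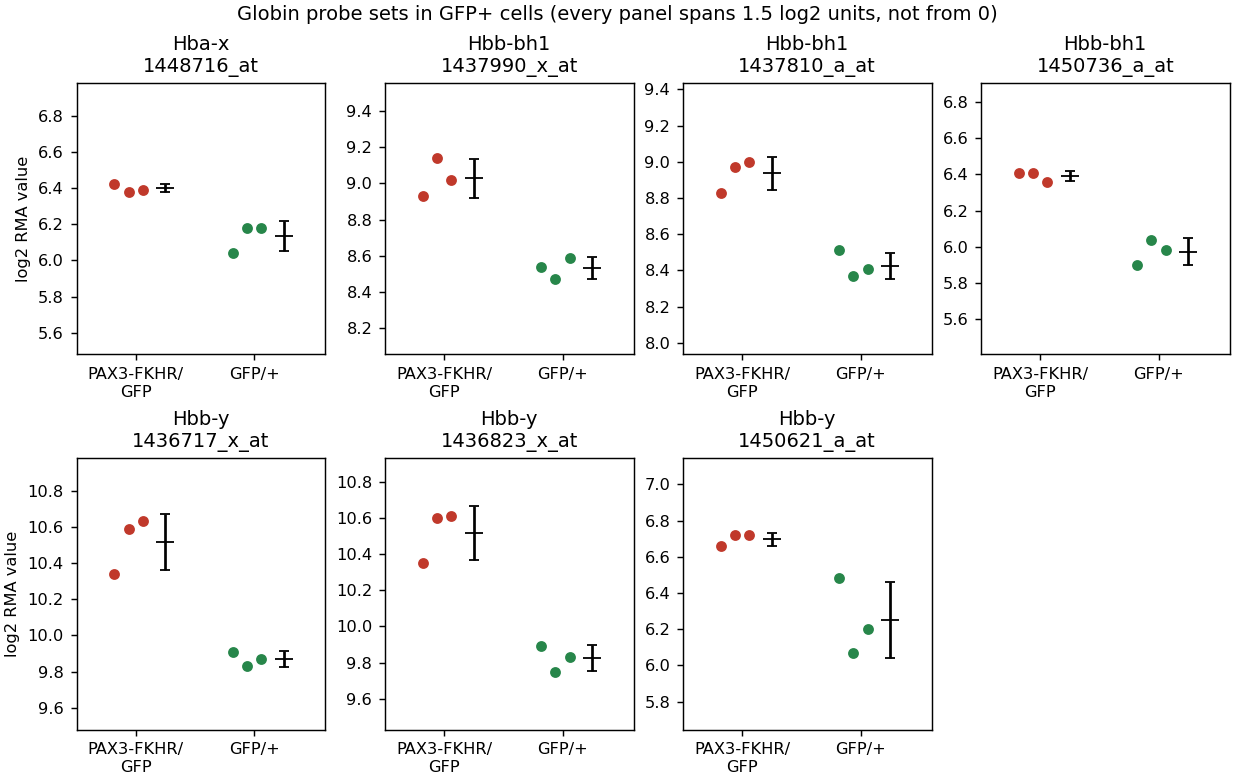
Log2 RMA values (vertical axes, each spanning the same number of log2 units and not starting at 0) of the 7 globin probe sets in PAX3-FKHR/GFP and GFP/+ cells. Points are the 3 arrays of a group and bars the mean ± SD. In each panel the PAX3-FKHR/GFP points lie above the GFP/+ points, with the nearest approach for Hba-x (6.38 against 6.18) and Hbb-y 1450621_a_at (6.66 against 6.48).

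Of the 8 probe sets for the other erythroid genes, limma called 0, the local pooled error test called 0, and 0 had an unadjusted p under 0.05. Their log2 differences were positive for 4 and negative for 4, with a median of 0.01. Alas2 had values of 4.44, 4.51 and 4.33 in PAX3-FKHR/GFP cells, against 4.25, 4.42 and 4.53 in GFP/+ cells, and the 95% interval of the log2 difference was -0.20 to 0.25. Hemgn had values of 3.10, 3.12 and 2.96 in PAX3-FKHR/GFP cells, against 2.88, 2.99 and 3.01 in GFP/+ cells (interval -0.06 to 0.26). For both genes the groups overlapped.

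Gata1 had values of 3.48, 3.31 and 3.33 in PAX3-FKHR/GFP cells, against 3.50, 3.53 and 3.48 in GFP/+ cells, a log2 difference of -0.14 (SE 0.079, adjusted p = 0.645, interval -0.31 to 0.04). Klf1 had values of 5.15, 4.92 and 4.84 in PAX3-FKHR/GFP cells, against 4.90, 4.63 and 4.89 in GFP/+ cells (interval -0.09 to 0.42). For Gata1 the highest PAX3-FKHR/GFP array lay just under the lowest GFP/+ array, a separation downwards that 6.72% of all probe sets had, and for Klf1 the groups overlapped.

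Slc4a1 1416464_at had values of 4.53, 4.04 and 4.19 in PAX3-FKHR/GFP cells, against 4.36, 4.28 and 4.48 in GFP/+ cells (interval -0.40 to 0.16), and its other probe sets gave log2 differences of 0.09 and -0.007. Epor had values of 5.59, 5.34 and 5.72 in PAX3-FKHR/GFP cells, against 5.76, 5.55 and 5.38 in GFP/+ cells (log2 difference -0.01, interval -0.29 to 0.27). Neither gene separated the groups on these probe sets, and the intervals leave room for differences of these sizes either way. Whether the globin differences and those of the other erythroid genes differ from each other was not tested.

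**Figure D4:**
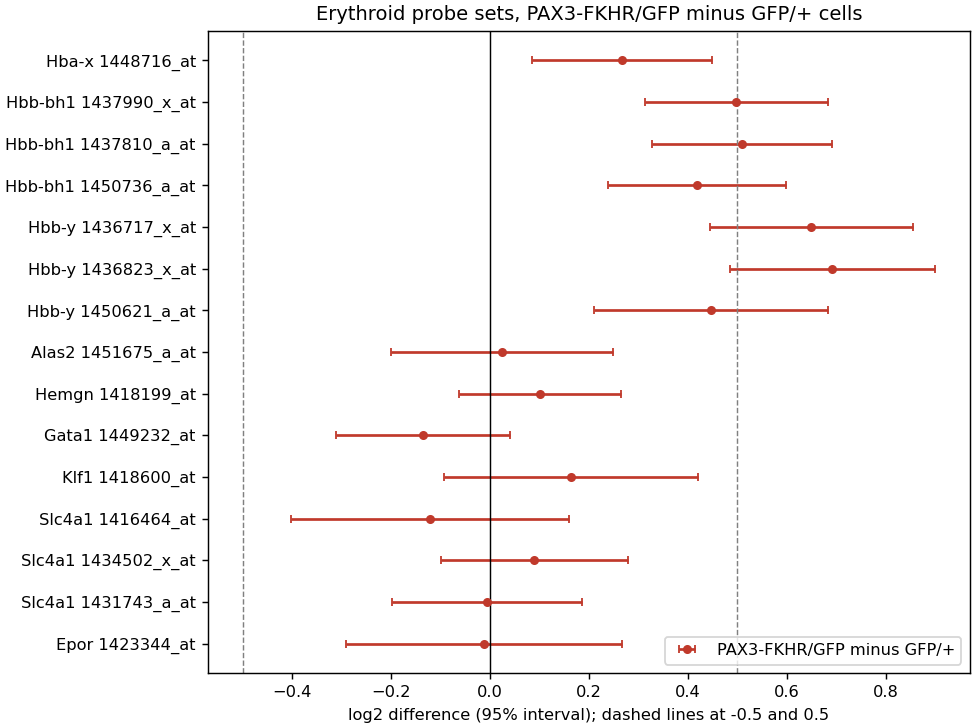
Log2 difference (horizontal axis, with 95% intervals) of each of the 15 probe sets, PAX3-FKHR/GFP minus GFP/+ cells, with dashed lines at the size limit of -0.5 and 0.5. The 7 globin probe sets lie between 0.27 and 0.69, and the 8 others between -0.14 and 0.16.

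Adult alpha and beta globin genes are nearly identical copies, and the 4 bright probe sets for them name several genes each, so that no single gene can be read. An alpha globin probe set, 1428361_x_at, had values of 7.89, 7.96 and 8.11 in PAX3-FKHR/GFP cells and 7.71, 7.53 and 7.45 in GFP/+ cells, against 13.59, 13.58 and 13.77 in GFP- cells. It fell in GFP/+ cells (log2 difference -6.08), and between PAX3-FKHR/GFP and GFP/+ cells the difference of 0.42 did not pass (adjusted p = 0.0554). The other bright alpha globin probe sets overlapped between the GFP+ groups. There 1452757_s_at gave 0.42 (limma's adjusted p = 0.363) and 1417714_x_at 0.10 (0.874). A beta globin probe set, 1417184_s_at, had values of 6.36, 6.41 and 6.28 in PAX3-FKHR/GFP cells and 6.50, 6.32 and 6.35 in GFP/+ cells, against 9.74, 9.86 and 9.69 in GFP- cells. Here GFP/+ cells were lower than GFP- cells by a log2 difference of -3.37, and the GFP+ groups overlapped.

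The rest of the erythroid programme was read from lists of 15 transcription factor genes, 16 of 17 haem and iron genes, 19 of 22 membrane genes, 9 of 10 erythropoietin signalling genes and 3 of 10 other globin and chaperone genes, with 1 probe set a gene. In GFP/+ cells against GFP- cells, 9 of the 16 haem and iron genes fell (median log2 difference -0.58), as did 12 of 19 membrane genes (-0.62), 6 of 15 transcription factor genes (-0.29) and 2 of 9 signalling genes (-0.24), beside 5.05% of all genes and a median of 0.008 over them. No gene of these lists rose. For the 3 other globin genes with a probe set of their own, limma and the local pooled error test called 0, and 1 had an unadjusted p under 0.05. All 3 were below the array median in every group, GFP- cells included, so a difference could hardly be seen on them. The brighter adult globin probe sets that name several genes, given above, are not in this list.

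Among haem and iron genes, Slc25a37, the mitochondrial iron importer mitoferrin, had values of 7.73, 7.83 and 7.83 in GFP/+ cells, against 9.59, 9.60 and 9.73 in GFP- cells (log2 difference -1.84, SE 0.062, 3.59-fold lower). Fech, which puts iron into haem, fell by 1.41 on the log2 scale, the mitochondrial transporter gene Abcb10 by 1.14 and the haem synthesis gene Uros by 0.87. Other probe sets of these genes differed: those of Fech ranged from -1.88 to 0.04 and those of Abcb10 from -1.25 to -0.04. The other Uros probe set gave -0.11, and with the mean over its probe sets Uros was not called (-0.49). Of the membrane and cytoplasm genes, the carbonic anhydrase gene Car2 had values of 6.22, 6.32 and 6.06 in GFP/+ cells, against 9.32, 9.90 and 10.31 in GFP- cells (-3.65, SE 0.20, 12.5-fold lower). Ermap, an erythroblast membrane protein gene, fell by 2.92, Trim10, a RING finger gene of terminal erythroid maturation, by 2.91 and Rhag, which encodes the Rh-associated glycoprotein, by 2.13.

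Of the transcription factor genes, Tal1, a helix-loop-helix factor of blood formation, had values of 4.97, 4.87 and 4.80 in GFP/+ cells, against 6.66, 6.68 and 6.65 in GFP- cells (-1.78, SE 0.075, 3.44-fold lower, adjusted p = 2.04e-07). Zfpm1, the GATA1 cofactor FOG1, fell by 1.94, Nfe2, a subunit of a factor that binds globin control regions, by 1.90 and the TAL1 relative Lyl1 by 1.21, whereas Lmo2, which bridges TAL1 and GATA1, had a log2 difference of -0.41 (adjusted p = 0.0255) under the size limit and was called without GFP- replicate 1. Kit, the stem cell factor receptor, fell by 1.55 (SE 0.098) and Socs2, a feedback inhibitor of cytokine signalling, by 0.79. The other probe set of Kit gave -0.19 and that of Zfpm1 -0.42, and neither was called. Of the 5 other Socs2 probe sets 1 was called lower, and they ranged from -1.19 to 0.07. With the mean over a gene's probe sets, Kit was called (-0.87) and Socs2 was not (-0.31). Ahsp was not analysed here.

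PAX3-FKHR/GFP cells against GFP- cells gave 8 of 16 haem and iron genes, 12 of 19 membrane genes, 5 of 15 transcription factor genes and 1 of 9 signalling genes that fell, beside 5.2% of all genes. Slc25a37 had a log2 difference of -1.61, Fech -1.43, Abcb10 -1.13 and the haem synthesis gene Alad -1.03. The other probe sets of Fech ranged from -1.67 to 0.16 and those of Abcb10 from -1.41 to 0.03, while the other of Alad gave -0.66. Car2 had -3.87, Ermap -3.06, Trim10 -3.02 and Rhag -2.31. Zfpm1 had -2.13, Tal1 -1.93, Nfe2 -1.80, Lyl1 -1.44 and Kit -1.13. The other probe set of Zfpm1 gave -0.44 and that of Kit -0.19, and neither was called. Lmo2 had -0.47, and it was called once either the array of PAX3-FKHR/GFP replicate 3 or that of GFP- replicate 1 was left out.

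Between PAX3-FKHR/GFP and GFP/+ cells, 3 of the 9 erythropoietin signalling genes rose, beside 1.31% of all genes, and their list's median log2 difference was 0.31, beside -0.001 over all genes. Socs3, a feedback inhibitor of JAK and STAT signalling, had values of 8.88, 9.03 and 9.15 in PAX3-FKHR/GFP cells, against 8.32, 8.35 and 8.16 in GFP/+ cells (0.74, SE 0.092, 1.67-fold, adjusted p = 0.00169). Pim1, a kinase gene induced by STAT factors, had values of 8.76, 8.68 and 8.91 in PAX3-FKHR/GFP cells, against 8.19, 8.09 and 7.89 in GFP/+ cells (0.72, SE 0.099, adjusted p = 0.00297). Socs2 had values of 7.01, 7.13 and 7.01 in PAX3-FKHR/GFP cells, against 6.43, 6.49 and 6.36 in GFP/+ cells (0.62, SE 0.081, adjusted p = 0.00222). These genes respond to many cytokines besides erythropoietin. They are named because they were called, so the separation of the GFP+ groups adds nothing to the calls. The probe sets read were 1455899_x_at for Socs3 and 1418507_s_at for Socs2. Of the 2 other Socs3 probe sets 1 was called higher (range 0.19 to 0.88), and of the 5 other Socs2 probe sets 0 were (-0.08 to 0.90). The other Pim1 probe set gave 0.07. Without _s_at and _x_at probe sets, 1 of the 7 signalling genes left was called. With the mean over all probe sets of a gene, Socs3 alone was called (log2 difference 0.60), with 0.40 for Pim1 and 0.27 for Socs2.

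In the other erythroid lists limma called 0 genes between PAX3-FKHR/GFP and GFP/+ cells, as did the local pooled error test. Unadjusted p was under 0.05 for 3 of 16 haem and iron genes, 2 of 19 membrane genes, 7 of 15 transcription factor genes and 0 of 3 other globin genes. These went both ways: 2 higher and 1 lower for haem and iron, 0 and 2 for membrane, and 4 and 3 for transcription factor genes. The share of all genes under that limit is not given here, so these counts are not read as a shift. Among the genes that mark the lineage, Kit had a log2 difference of 0.42 (adjusted p = 0.145), Tal1 -0.14 (0.705) and Lmo2 -0.05 (0.93).

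Some markers of other cell types fell between GFP/+ and GFP- cells, where 5.05% of all genes fell. Of 12 endothelial markers 8 fell, and their summed linear signal was 946 to 991 in PAX3-FKHR/GFP cells and 996 to 1023 in GFP/+ cells, against 1435 to 1491 in GFP- cells. The vessel genes Cdh5, Tek, Erg and Tie1 had log2 differences of -1.52, -1.20, -1.17 and -1.0 between GFP/+ and GFP- cells, while Pecam1 had 0.004. The other probe set of Cdh5 gave 0.01 and that of Erg 0.03, and both genes were called with the mean over their probe sets (-0.75 and -0.57). Of 8 megakaryocyte and platelet markers 4 fell, beside the same 5.05%, with a summed signal of 196 to 229 in PAX3-FKHR/GFP cells and 201 to 218 in GFP/+ cells, against 561 to 665 in GFP- cells. Pf4, which encodes platelet factor 4, had values of 4.20, 4.14 and 4.30 in GFP/+ cells, against 8.39, 7.99 and 8.18 in GFP- cells (15.7-fold lower).

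Of 12 macrophage and leukocyte markers 1 fell between GFP/+ and GFP- cells, Csf1r (-1.24), near the 5.05% of all genes, and the general leukocyte gene Ptprc had a log2 difference of -0.34 that was not called. The 2 other Csf1r probe sets gave -0.27 and 0.13 and were not called, nor was the mean over its probe sets (-0.46). Their summed signal was 270 to 719 in PAX3-FKHR/GFP cells and 435 to 545 in GFP/+ cells, against 466 to 505 in GFP- cells. The summed linear signal of the 9 erythroid genes was 2017 to 2321 in PAX3-FKHR/GFP cells and 1466 to 1543 in GFP/+ cells, against 36902 to 37157 in GFP- cells. In GFP+ cells this sum mostly holds the signal of Hbb-y 1436717_x_at and Hbb-bh1 1437990_x_at. Their mean log2 values were 10.52 and 9.03 in PAX3-FKHR/GFP cells, and 9.87 and 8.53 in GFP/+ cells. The sum therefore says little about the other erythroid genes. In both GFP+ groups 4 of the 9 genes were below the array median, and in GFP- cells 0 were. Between PAX3-FKHR/GFP and GFP/+ cells limma called 0 of the 12 endothelial, 12 leukocyte and 8 megakaryocyte markers, with unadjusted p under 0.05 for 3, 3 and 0 of them, and the local pooled error test called 1, 0 and 0. Those with unadjusted p under 0.05 were 1 higher and 2 lower for endothelial, and 0 higher and 3 lower for leukocyte markers. Of the 11 dermomyotome markers 5 rose and 2 fell in PAX3-FKHR/GFP cells against GFP/+ cells, beside 1.31% and 0.715% of all genes, with log2 differences of 1.70 for Met, 1.42 for Lbx1, 0.92 for Tcf15 and -0.91 for Pax3. The other probe set of Met gave 0.08 and that of Lbx1 0.21, and neither was called. Both genes were called with the mean over their probe sets (0.89 and 0.81). The authors treat lower Pax3 as a control, since the genotype of PAX3-FKHR/GFP cells has no intact Pax3 allele. The part of each cell type in the globin differences was not tested.

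**Figure D5:**
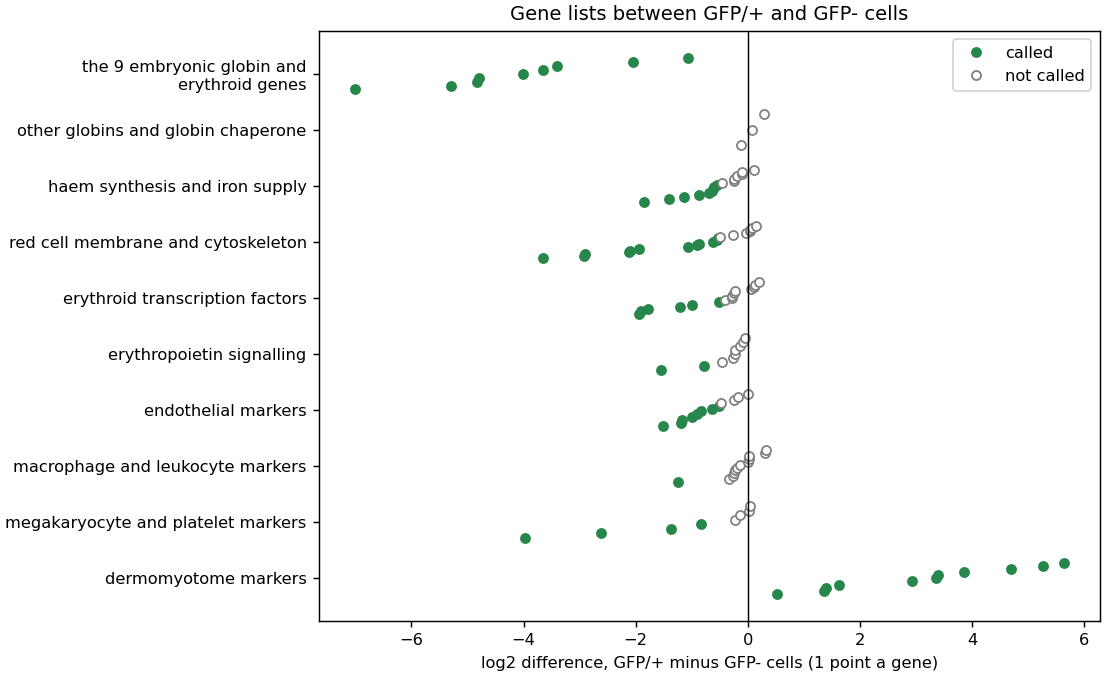
Log2 difference (horizontal axis, GFP/+ minus GFP- cells) of each gene of the erythroid and marker lists, 1 point a gene, filled where called. The 9 erythroid genes lie between -7.01 and -1.07, the other erythroid lists reach down to -3.65 (Car2), and the 11 dermomyotome markers lie on the positive side, up to 5.64 (Dmrt2).

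The genes whose pattern over the 9 arrays came nearest to the mean of the embryonic globins were Lhx9, Gpr50, Foxa1, Hand2 and Gata6, at root mean square distances of 0.215, 0.236, 0.352, 0.374 and 0.468 log2 units over 18184 genes compared. Foxa1, Hand2 and Gata6 encode transcription factors known from endoderm, lateral mesoderm and heart. Lhx9, a LIM homeobox gene, had values of 3.24, 3.37 and 3.11 in PAX3-FKHR/GFP cells and 3.21, 2.99 and 3.33 in GFP/+ cells, against 8.17, 8.03 and 8.10 in GFP- cells. Among the erythroid genes themselves, Hbb-bh1 lay at 0.039, Hbb-y at 0.831 and Hba-x at 0.852, so that 2 of the globins lay farther from their own mean than these 5 genes. That mean used the brightest probe set of each globin, with GFP/+ minus GFP- differences of -7.01 (Hba-x), -5.29 (Hbb-bh1) and -3.66 (Hbb-y). On 1450736_a_at Hbb-bh1 had -6.86, and on 1450621_a_at Hbb-y had -6.79, both near Hba-x. The distances thus depend on the probe sets chosen, and other choices were not tested. Alas2 lay at 0.235, Hemgn at 0.238, Slc4a1 at 0.571, Klf1 at 0.853, Gata1 at 1.42 and Epor at 1.90. The 9 arrays fall into 3 groups, so that the distance mostly measures the size of the difference from GFP- cells.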

How the data were processed

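Total RNA of 9 pooled, sorted samples was amplified in 2 cycles, 3′-biased, and hybridised to Affymetrix GeneChip mouse genome arrays. The authors deposited log2 values after RMA, which corrects background, equalises the arrays and summarises probes. The RMA version is not given in the sources used here, nor is the set of arrays it was run on. Their removal of probe sets called absent was not applied. Of 45101 probe sets 64 controls were left out, and of the 45037 tested 34945 named 1 gene, 932 several and 9160 none (platform annotation). The symbols of the 9 erythroid genes were checked by Entrez identifier. Each pair of groups was fitted with limma 3.58.1 in R 4.3.3 (moderated, two-sided, intensity trend), with Benjamini-Hochberg adjustment over all probe sets. The limits of 0.05 and 0.5 follow the methods, whose local pooled error test was run as an alternative. Scripts were tested on simulated data. A gene in a list was read from its probe set with the highest mean. Named were all 9 erythroid genes, up to 4 called genes of each other erythroid list with the largest differences, Ahsp, Tal1, Lmo2 and Kit, and the 5 genes nearest to the globins. A further gene of this rule is not reported here. Cell type markers are given by count, and those named were chosen after their values were seen. Genes and lists were chosen with earlier results of these data known. Other alternatives were replicates left out in turn, a replicate block, a second quantile normalization, median centring, all 9 arrays in 1 fit, no intensity trend, no dim probe sets, no _s_at or _x_at probe sets, and the mean over a gene's probe sets. Sums used linear values.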

Additional observations from a re-analysis of the deposited data

How the results depend on the processing

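Between either GFP+ group and GFP- cells, no call among the 15 probe sets of the 9 genes changed under any alternative that gave it a value. Calls in the other erythroid lists did change, as for Lmo2 with 1 array left out. With the mean over a gene's probe sets, 7 haem and iron genes fell in GFP/+ against GFP- cells, not 9. For membrane genes it was 11, not 12, for transcription factor genes 5, not 6, and for signalling genes 1, not 2. Between PAX3-FKHR/GFP and GFP/+ cells, 3 erythroid probe sets were called, against 1 of the 11 left without _s_at and _x_at probe sets and 1 to 4 with 1 array left out (1 when that array was PAX3-FKHR/GFP replicate 2, or replicate 2 or 3 of GFP/+). Over all probe sets the same comparison gave 611 calls, and 358 to 578 with 1 array left out, which is fewer samples. Of the other erythroid lists 3 genes were called, against 1 with the mean over a gene's probe sets. Small differences that were not called changed sign: with 1 array left out, Alas2 ranged over -0.050 to 0.086, Slc4a1 1431743_a_at over -0.068 to 0.056 and Epor over -0.10 to 0.092, Slc4a1 1431743_a_at had 0.014 after a second quantile normalization and 0.0060 after centring, and Epor had 0.034 with the local pooled error test and 0.00063 after centring. The cause was not tested. With the replicate number as a block, 3 erythroid probe sets were called between PAX3-FKHR/GFP and GFP/+ cells and 14 in each comparison with GFP- cells, and 603, 2122 and 2451 probe sets in all, against 611, 2095 and 2411 without it. Arrays of the same number did not deviate together (correlations of deviations -0.096 to 0.105), so the numbers were not taken as pairs. Signal near or below the array median limits what can be seen of Alas2, Hemgn, Gata1 and Slc4a1 in GFP+ cells, and no other depth measure applies to arrays.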
